A study of Mus musculus with 16 samples.

Results

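The chromatin mark map of mesenchymal stem cell (MSC) lines with intact Dicer was built from 6 ChIP-seq libraries of 16 samples in the series. They were chosen by their labels: H3K4me3, H3K36me3 and H3K27me3 in lines labelled WT, each with replicate 1 and replicate 2. The lines were immortalized, monoclonal murine MSCs of strain C57BL/6 carrying the Dicer f/f genotype, in which the floxed Dicer gene is still present, and they were cultured in medium with serum. Immortalization and clonal derivation were thus shared by all 6 libraries. The number of clones and the age of the donor animals were not stated. Nothing in the labels said that replicates came from separate cultures, so the spread between them may be technical. Each library was represented by its list of peaks called against whole-cell extract, and only chromosomes 1 to 19 were used. Positions are mm9. The gene table at hand belonged to another mouse build, so no gene was assigned to a peak, and the state of mesenchymal genes, and of the marker genes that would check the MSC label, was not analysed here.

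The 3 marks report on different steps of gene control. H3K4me3, trimethylation of lysine 4 of histone H3, is placed by the SET1 and MLL complexes at CpG-rich promoters and marks sites where transcription starts or is poised. H3K36me3 is placed by SETD2, which travels with elongating RNA polymerase II, so that it lies over the bodies of transcribed genes downstream of the promoter. H3K27me3 is placed by Polycomb repressive complex 2 (PRC2) over silent developmental genes, and in stem cells it can share a promoter with H3K4me3, a state called bivalent. In mesenchymal cells Polycomb is known for keeping regulators of other lineages silent.

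H3K36me3 covered the most of the genome and H3K27me3 the least, in each replicate. H3K36me3 peaks covered 106 Mb in replicate 1 and 173 Mb in replicate 2, H3K4me3 peaks 24.3 and 42.8 Mb, and H3K27me3 peaks 4.64 and 37.3 Mb. The lists held 37562 and 36982 H3K36me3 peaks, 12314 and 17755 H3K4me3 peaks, and 2533 and 14523 H3K27me3 peaks. The covered length of H3K36me3 was 4.36 and 4.04 times that of H3K4me3, a ratio that differed little between replicates, but 22.8 and 4.64 times that of H3K27me3. With 2 libraries per mark the exact two-sided permutation test of log2 covered length cannot go below p = 0.333, the value found for H3K36me3 against either other mark (mean log2 difference 2.07 and 3.36, n = 2, adjusted p = 0.5 over 3 pairs). For H3K4me3 against H3K27me3, whose libraries overlapped in length, the exact p was 0.667 (mean log2 difference 1.29). This exact test could therefore not pass a threshold of 0.05, and the values below are given for each replicate as descriptions.

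H3K4me3 peaks had a median width of 1823 and 2161 bp, H3K36me3 peaks of 1574 and 2290 bp, and H3K27me3 peaks of 1192 and 1490 bp. The medians hide the long tails of the broad marks. The widest H3K36me3 peak measured 59.6 kb in replicate 1 and 96.9 kb in replicate 2, the widest H3K27me3 peak 33.3 and 110.0 kb, and the widest H3K4me3 peak 16.3 and 25.7 kb. Replicate 2 covered more bases than replicate 1 for every mark, though with fewer H3K36me3 peaks, and replicate 1 was nearly nested in it. The replicate 2 list held 99.6% of the replicate 1 bases of H3K4me3, 93.1% of those of H3K36me3 and 99.4% of those of H3K27me3. In the other direction the shares were 56.6%, 57.0% and 12.4%. The files gave no read counts, so the depth behind each list was unknown, and a mark that is absent from a list may lie below its calling threshold.

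Most marked bases carried a single mark. H3K36me3 alone made up 78.4% of all marked bases in replicate 1 and 68.5% in replicate 2, H3K4me3 alone 17.0% and 14.6%, and H3K27me3 alone 3.40% and 14.1%. H3K4me3 shared 1.51 and 4.30 Mb with H3K36me3 and 0.114 and 2.62 Mb with H3K27me3. H3K36me3 and H3K27me3 shared 1.61 and 10.8 kb, of which 0 and 3.19 kb also carried H3K4me3. All 3 marks together covered 5.54% and 10.2% of the listed span, the 2403 Mb between the first and last listed base of each chromosome.

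The overlaps were set against the share of the listed span that each mark covered, which is the overlap that independent placement over the span would give. H3K4me3 bases carried H3K27me3 2.43 and 3.95 times as often as the span did, and H3K36me3 1.41 and 1.40 times as often. The span included stretches of 1 Mb or more with no peak in any list, which made up 30.4% of it. Without these stretches every ratio would be lower, so 1.41 and 1.40 are not read here as an excess. H3K27me3 bases carried H3K36me3 0.00788 and 0.00404 times as often, that is 127-fold and 248-fold less than the share of the span. Relative to the share of the whole span, each direction was the same in replicates that differed 8.04-fold in the covered length of H3K27me3.

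Counted by peaks, H3K4me3 met H3K36me3 more often than it met H3K27me3, with no correction for the length that each mark covered. H3K36me3 covered 4.41% and 7.19% of the span and H3K27me3 0.193% and 1.55%. Set against these shares, as above, H3K4me3 bases met H3K27me3 the more often. Of H3K4me3 peaks, 11.4% in replicate 1 and 21.0% in replicate 2 were overlapped by H3K36me3 by at least 1 bp. H3K27me3 overlapped 1.5% and 11.0% of H3K4me3 peaks. Seen from the other side, 3.76% and 10.4% of H3K36me3 peaks and 7.54% and 13.6% of H3K27me3 peaks were overlapped by H3K4me3. H3K36me3 overlapped 3 of 2533 and 17 of 14523 H3K27me3 peaks, or 0.118% and 0.117%, with 95% Wilson intervals of 0.0403% to 0.348% and 0.0731% to 0.187% that cover counting error only. These were 0.00799% and 0.046% of the H3K36me3 peaks. With scores of at least 160, replicate 1 had no such H3K27me3 peak and replicate 2 had 0.103%.

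Where H3K4me3 met H3K36me3, most of the H3K4me3 peak usually stayed free of it. H3K36me3 covered at least 50% of the width in 353 of 1405 overlapped H3K4me3 peaks in replicate 1 and in 719 of 3720 in replicate 2. H3K27me3 did so in 76 of 185 and 1489 of 1949, so in replicate 2 the larger part of the H3K4me3 peak usually lay under the Polycomb mark. In replicate 2, 1018 of the 1949 peaks (52.2%) lay wholly inside a single H3K27me3 peak, 742 (38.1%) were staggered with it, 75 (3.85%) contained it and 114 (5.85%) touched several H3K27me3 peaks. In replicate 1 the staggered form led, with 134 of 185 (72.4%), and 30 (16.2%) lay wholly inside. H3K27me3 lay within 5 kb beyond the H3K4me3 peak on both sides at 35.7% and 60.5% of these peaks, and on 1 side at 61.1% and 36.2%.

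Most H3K4me3 peaks had H3K36me3 within 10 kb, whereas most H3K27me3 peaks stood more than 10 kb from H3K36me3. The median edge-to-edge distance from an H3K4me3 peak to the nearest H3K36me3 peak was 6.67 kb in replicate 1 and 7.07 kb in replicate 2. H3K36me3 lay within 10 kb of 56.9% and 54.5% of H3K4me3 peaks. Seen from H3K36me3, the nearest H3K4me3 peak was further off, at a median 19.2 and 15.1 kb. The share of the span within 10 kb of H3K36me3 was not computed, so no excess is read from these distances. From H3K27me3 the nearest H3K36me3 peak was a median 74.4 and 59.8 kb away, with 5.21% and 8.24% of peaks within 10 kb, and peaks that did not touch H3K36me3 but lay within 1 kb of it were 0% and 0.220%. The nearest H3K4me3 peak was closer to H3K27me3, at a median 50.3 and 23.3 kb. Distances towards H3K27me3 moved with the length of its list. From H3K4me3 the median was 342 kb in replicate 1 and 73.6 kb in replicate 2, and from H3K36me3 451 and 118 kb.

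**Figure D1:**
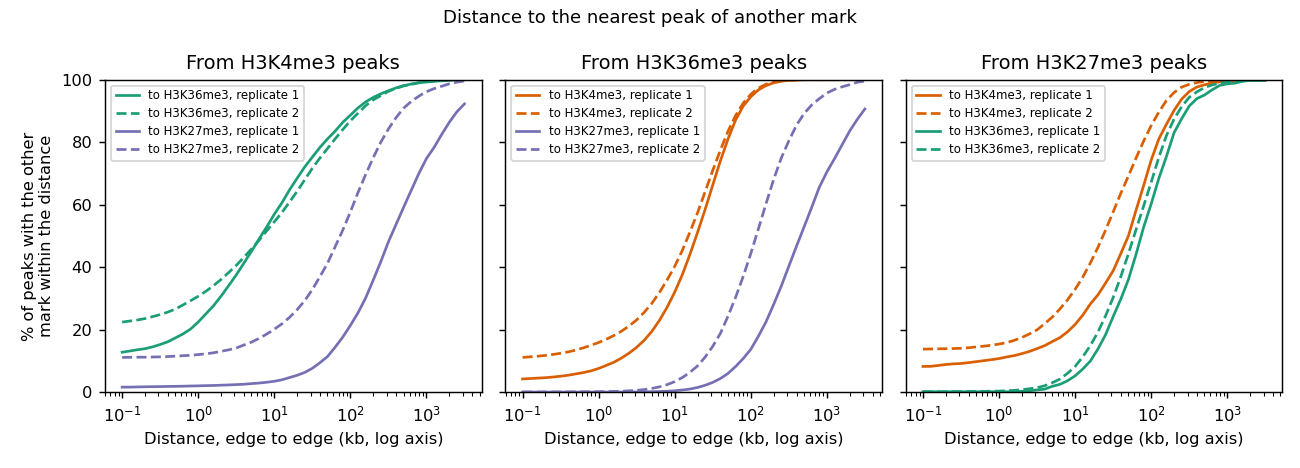
Share of peaks (vertical axis, percent) that have a peak of another mark within a given edge-to-edge distance (horizontal axis, kb on a log scale), for peaks of each mark in replicate 1 (solid lines) and replicate 2 (dashed lines). The curves from H3K27me3 to H3K36me3 stay close to the axis up to about 1 kb and reach 5.21% and 8.24% at 10 kb, while those from H3K4me3 to H3K36me3 stand at 56.9% and 54.5% there.

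H3K4me3 peaks fell into classes by the marks around them. The largest class had H3K36me3 within 10 kb and no H3K27me3 overlap, with 6992 peaks (56.8%) in replicate 1 and 9346 (52.6%) in replicate 2. The next class, of 5137 (41.7%) and 6460 (36.4%) peaks, had neither. H3K27me3 overlap without H3K36me3 nearby was found at 167 (1.36%) and 1616 (9.10%) peaks, and both together at 18 (0.146%) and 333 (1.88%). Peaks with H3K36me3 nearby had a median width of 2104 and 2754 bp, those under H3K27me3 alone 1035 and 1595 bp, and those with neither 1437 and 1477 bp. The order of the last classes thus differed between replicates. The authors' peak score reached 3100 or more in 60.6% and 78.2% of peaks near H3K36me3, in 5.39% and 28.0% of those under H3K27me3 alone, and in 19.6% and 31.7% of those with neither, an order that held in each replicate.

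**Figure D2:**
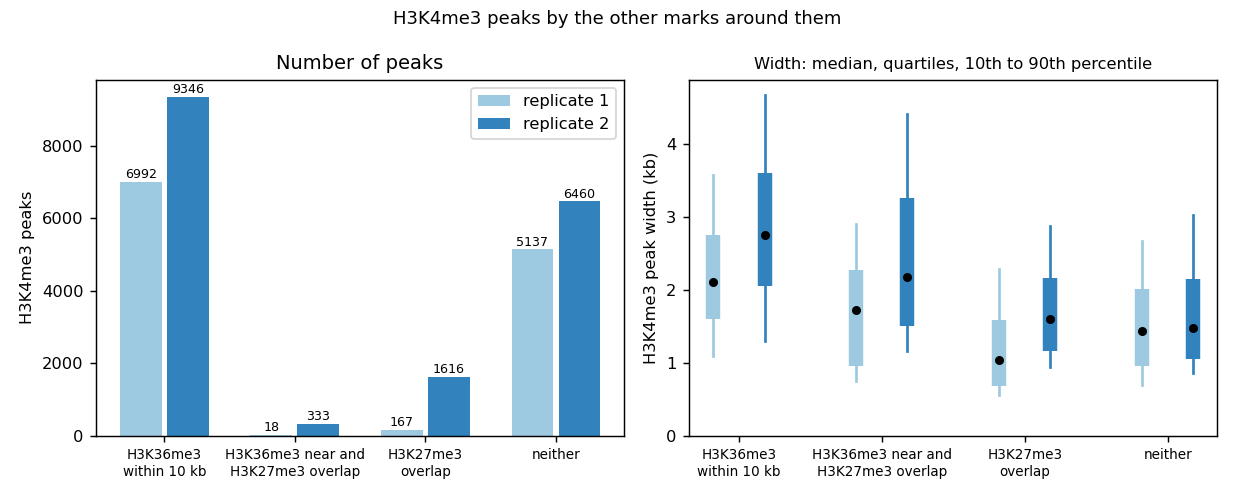
Number of H3K4me3 peaks (left, bars from 0) and their width in kb (right; point, median; thick bar, quartiles; thin line, 10th to 90th percentile) in 4 classes set by H3K36me3 within 10 kb and H3K27me3 overlap, for replicate 1 (light) and replicate 2 (dark). Peaks with H3K36me3 nearby were the most numerous, 6992 and 9346, and had the highest median width, 2104 and 2754 bp.

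Wide H3K4me3 peaks mostly had H3K36me3 on or near them. The share with H3K36me3 within 10 kb was 29.5% in replicate 1 and 22.3% in replicate 2 for peaks under 1 kb, 71.3% and 67.9% for those of 2 to 3 kb, and 89.0% and 90.1% for those of 5 kb or more. H3K36me3 overlapped 65.7% and 69.4% of the peaks of 5 kb or more. A wide peak has more room for an overlap. By bases H3K36me3 covered 33.0% and 30.4% of these peaks, against 1.46% and 1.90% of those under 1 kb. H3K27me3 covered more of the narrow peaks. It lay on 2.16% and 11.0% of the bases in H3K4me3 peaks under 1 kb, on 0.555% and 14.3% in those of 1 to 2 kb, and on 0.581% and 1.25% in those of 5 kb or more. The 172 peaks of 5 kb or more in replicate 1 included a single one that met H3K27me3, and the 808 in replicate 2 included 28.

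Among H3K27me3 peaks, the wide ones met H3K4me3 more often in replicate 2. There 3.63% of H3K27me3 peaks under 1 kb, 21.2% of those of 2 to 5 kb and 43.9% of those of 10 kb or more were overlapped by H3K4me3. A wide peak has more room for an overlap, and by bases the shares were 2.52%, 9.08% and 5.70%, so the rise stopped at the middle widths. In replicate 1 the bases carrying H3K4me3 made up 2.22%, 2.34% and 1.88% in the same width classes, with 26 peaks in the widest. H3K36me3 peaks of 20 kb or more lay within 10 kb of H3K4me3 in 63.6% and 68.1% of cases, against 24.9% and 30.8% of those under 1 kb.

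From replicate 1 to replicate 2, whose lists nearly contain those of replicate 1, H3K4me3 peaks with another mark largely kept their class. The nesting makes this direction close to fixed in advance. Of 6992 peaks near H3K36me3 in replicate 1, the matching replicate 2 peak was in the same class for 6743 (96.4%). Of the 167 peaks under H3K27me3 alone, 145 (86.8%) kept that class, 15 (8.98%) also had H3K36me3 in replicate 2, and none had H3K36me3 in place of H3K27me3. Of the 5137 peaks with neither mark, 2948 (57.4%) still had neither in replicate 2, 1594 (31.0%) were near H3K36me3 there and 469 (9.13%) lay under H3K27me3. Replicate 2 covered more bases with either of those marks. In the reverse direction fewer peaks kept their class. Of the replicate 2 peaks, 6242 of 9346 (66.8%) near H3K36me3 were in the same class in replicate 1. For those under H3K27me3 alone it was 135 of 1616 (8.35%), while 440 (27.2%) had neither mark in replicate 1.

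Among the single-mark classes, the H3K4me3 peaks under H3K27me3 were most often missing from replicate 1. Of the 1616 replicate 2 peaks under H3K27me3 alone, 1031 (63.8%) had no H3K4me3 peak in replicate 1, against 1644 of 9346 (17.6%) near H3K36me3 and 3615 of 6460 (56.0%) with neither mark. The overlap of H3K27me3 with H3K4me3 differed with the lists that were paired. Of the replicate 1 H3K27me3 peaks, 7.54% were overlapped by H3K4me3 of replicate 1 but 33.3% by H3K4me3 of replicate 2, and of the replicate 2 H3K27me3 peaks only 5.10% met H3K4me3 of replicate 1. H3K4me3 regions, the merged peaks of both libraries, had both marks on the same bases at 178 places in replicate 1, 1948 in replicate 2, and 171 in both, out of 17794.

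H3K36me3 near H3K4me3 lay more often on 1 side than on both, but no more often than its frequency on each side would give. Of 6989 H3K4me3 peaks in replicate 1 with H3K36me3 in the 10 kb beyond either edge, 5581 (79.9%) had it on 1 side only, and in replicate 2 6854 of 9655 (71.0%). If the sides were independent, with H3K36me3 to the left of 33.4% and 34.96% of peaks and to the right of 34.7% and 35.2%, the share on 1 side would be 79.5% and 78.7%. The observed share was thus close to that value in replicate 1 and below it in replicate 2, where H3K36me3 lay on both sides of 15.8% of peaks against 12.3% from the product. Neither direction of the chromosome was favoured, with 2710 to the left and 2871 to the right in replicate 1 and 3406 and 3448 in replicate 2. H3K36me3 on both sides, at 1408 and 2801 peaks, went with an overlap by H3K27me3 in 0.0710% and 0.500% of peaks. With H3K36me3 on 1 side the overlap was 0.305% and 4.61%, and it was highest with H3K36me3 on neither side, at 3.14% and 19.99%.

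The side was then read in 1 replicate and the coverage measured in the other. The 2 lists are not independent, since that of replicate 2 held 93.1% of the replicate 1 H3K36me3 bases. A side marked in replicate 1 was thus mostly bound to be marked in replicate 2. Likewise, a side empty in replicate 2 was mostly bound to be empty in replicate 1. In the library that set the side, the 10 kb on the other side held no H3K36me3 by definition. Of the 5581 peaks with a side in replicate 1, replicate 2 had more H3K36me3 on the same side at 5341 (95.7%) and more on the opposite side at 104 (1.86%). With the roles exchanged, replicate 1 had more on the same side at 4988 of 6854 peaks (72.8%), more on the opposite side at 34 (0.496%), and equal lengths at the rest. In replicate 2 H3K36me3 covered 40.5% of the first kb beyond the H3K4me3 edge on its own side, rose to 67.2% at 5 to 10 kb and fell to 21.3% at 75 to 100 kb, where the span as a whole stood at 7.19%. On the other side it covered 1.87% of the first kb and 16.2% at 75 to 100 kb. In replicate 1 the values on the H3K36me3 side were 23.0%, 35.8% and 13.2% at the same distances, against 0.257%, 0.453% and 10.2% on the other.

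Close to these peaks H3K27me3 was the lower on the side where H3K36me3 was the higher. At 2 to 5 kb it covered 0.0951% of bases on the H3K36me3 side and 4.03% on the other side in replicate 2, a 42.4-fold difference, and 0.0868% and 0.502% in replicate 1, a 5.78-fold difference. The mark covered 1.55% and 0.193% of the span in those libraries. The gap narrowed with distance. At 75 to 100 kb H3K27me3 covered 3.41% and 3.72% in replicate 2 and 0.413% and 0.432% in replicate 1, above the span on either side. At 2 to 5 kb the side without H3K36me3 was thus near the level of the wider surroundings, and the side with H3K36me3 was below it. The first kb differed from this. There H3K27me3 covered 0.408% on the H3K36me3 side and 0.826% on the other in replicate 1, and 0.455% and 2.15% in replicate 2. The side was chosen by H3K36me3, which hardly ever shared bases with H3K27me3, so the low H3K27me3 coverage on that side repeats the relation. The other side was chosen for its lack of H3K36me3, and its coverage is no independent result either. H3K4me3 itself differed less between the sides, at 5.25% and 5.05% in replicate 2 and 3.65% and 2.28% in replicate 1 at 5 to 10 kb.

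**Figure D3:**
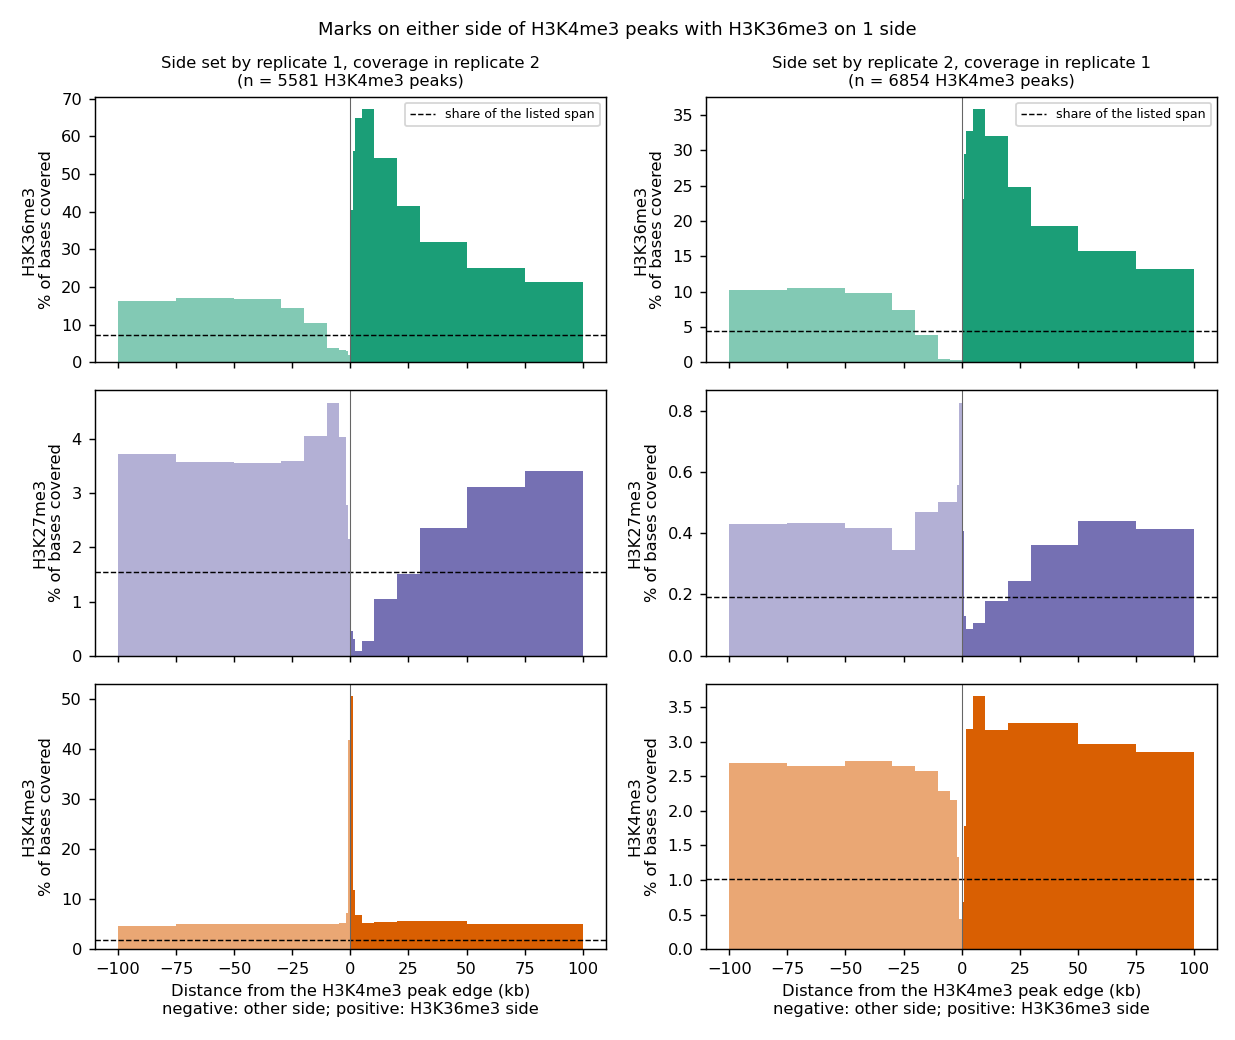
Percent of bases covered by H3K36me3, H3K27me3 and H3K4me3 (rows, each panel with its own vertical scale from 0) against distance in kb from the edge of H3K4me3 peaks with H3K36me3 within 10 kb on 1 side only; positive distances are the H3K36me3 side and the dashed line is the share of the listed span. The side was set in replicate 1 and coverage measured in replicate 2 (left, 5581 peaks), or the reverse (right, 6854 peaks); H3K36me3 reached 67.2% and 35.8% at 5 to 10 kb on its side, where H3K27me3 covered 0.264% and 0.108%.

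H3K36me3 peaks were also joined into runs wherever gaps were 10 kb or less, and runs of 10 kb or more were kept. There were 4263 in replicate 1 with a median length of 25.3 kb and 5449 in replicate 2 with 29.3 kb. H3K4me3 sat at 1 end of 2014 (47.2%) and 2837 (52.1%) of them, at both ends of 344 (8.07%) and 619 (11.4%), and at neither end of 1905 (44.7%) and 1993 (36.6%). An end was the stretch from 5 kb outside to 1 kb inside the run. These shares were not set against the frequency of H3K4me3 at each end, so no preference for 1 end is read from them. Runs with no H3K4me3 at an end or inside numbered 1656 (38.8%) and 1558 (28.6%). The median share of a run that its peaks covered was 52.0% and 61.0% in these, against 76.2% and 83.2% in runs with H3K4me3 at 1 end.

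Read as a string of peaks sorted by midpoint, a peak of H3K36me3 or H3K27me3 was mostly followed by its own mark. H3K27me3 had H3K4me3 as its next different neighbour more often than H3K36me3. After an H3K27me3 peak, the next peak of another mark was H3K4me3 in 72.2% of cases in replicate 1 and 81.8% in replicate 2, whereas H3K4me3 made up 51.8% and 57.1% of the runs of other marks, a run being an unbroken series of peaks of 1 mark. After an H3K36me3 peak the next peak of another mark was H3K4me3 in 94.4% and 89.7% of cases. In the remaining 5.59% and 10.3% it was H3K27me3, which made up 14.5% and 28.5% of the runs of other marks. Like often followed like: an H3K27me3 peak was followed by H3K27me3 in 53.8% and 68.9% of cases, where the mark made up 4.83% and 21.0% of all peaks. For H3K36me3 this share was 82.9% and 77.0%, where the mark made up 71.7% and 53.4% of all peaks. For H3K4me3 it was 44.0% and 36.1%, where the mark made up 23.5% and 25.6%. Runs of a single mark reached 78 and 69 peaks for H3K36me3, 29 and 51 for H3K27me3, and 33 and 26 for H3K4me3. With each run counted as 1 step, the commonest series of 3 steps were H3K4me3, H3K36me3, H3K4me3, found 5718 and 6836 times, and H3K36me3, H3K4me3, H3K36me3, found 5379 and 5670 times. Among the series that hold all 3 marks, in either direction, H3K4me3 was in the middle 1344 and 3983 times, H3K36me3 679 and 1665 times, and H3K27me3 517 and 1406 times. H3K27me3 stood between H3K4me3 on either side 567 and 2954 times, and between H3K36me3 on either side 83 and 146 times.

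H3K4me3 was also common in the stretch between each H3K27me3 peak and its nearest H3K36me3 peak. It held an H3K4me3 peak in 1586 of 2530 cases (62.7%) in replicate 1 and in 10792 of 14506 (74.4%) in replicate 2. The stretch of the same length on the far side of the H3K27me3 peak held one in 25.8% and 35.6%. Where the gap was 10 kb or less, H3K4me3 lay between in 54 of 129 (41.9%) and 795 of 1179 cases (67.4%), against 10.9% and 16.5% in the mirrored stretch. H3K36me3 ends the first stretch and not the mirrored one, and many H3K4me3 peaks lie near H3K36me3, so the comparison is not independent of the distance between those 2 marks.

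H3K27me3 and H3K36me3 seldom shared small windows and often shared large ones. In windows of 2 kb, 4 windows in replicate 1 and 60 in replicate 2 held both. As a share of all windows this was 0.0150 and 0.0217 times the product of the 2 marks' shares. The ratio was 0.212 and 0.264 in windows of 10 kb, passed 1 at 50 kb (1.19 and 1.16) and stood at 1.75 and 1.56 at 200 kb. In windows of 1000 kb 93.9% and 89.2% of those with H3K27me3 also held H3K36me3, against 69.4% and 72.1% of all windows. The ratio there was 1.35 and 1.24. Windows without any peak raise such ratios for every pair, and stretches of 1 Mb or more without a peak made up 30.4% of the span. Covered lengths in the 2415 windows of that size gave Spearman's rho = 0.438 and 0.609 between the 2 marks, 0.483 and 0.692 between H3K4me3 and H3K27me3, and 0.887 and 0.887 between H3K4me3 and H3K36me3. The values of a pair come from the same windows, some of which hold neither mark, and are descriptions. H3K4me3 shared windows with either mark above the product at every size, most at 10 kb with H3K36me3 (3.86 and 2.99) and at 2 kb with H3K27me3 (3.44 and 3.58).

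**Figure D4:**
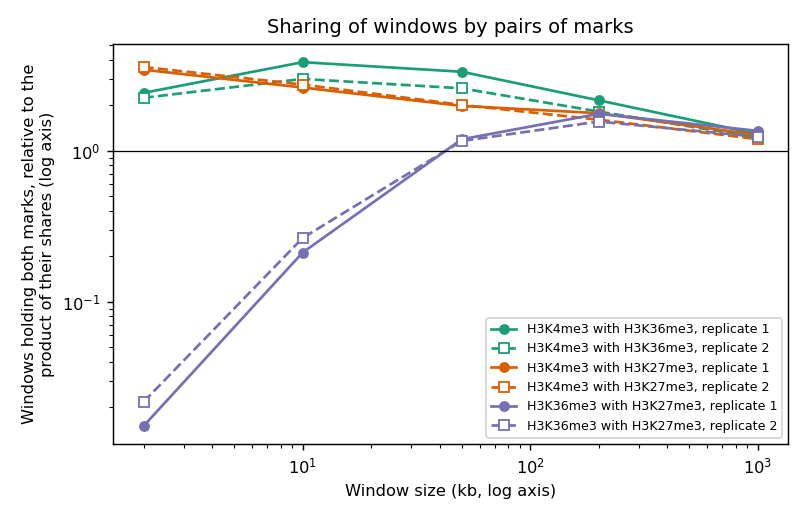
Share of windows that hold both marks of a pair, divided by the product of the 2 marks' shares of windows (vertical log axis). The horizontal line is 1, and window size is in kb (horizontal log axis). Replicate 1 has filled circles and solid lines, and replicate 2 open squares and dashed lines. H3K36me3 with H3K27me3 rose from 0.0150 and 0.0217 at 2 kb to 1.19 and 1.16 at 50 kb, while both pairs with H3K4me3 stayed above 1.

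The broadest Polycomb domains carried few H3K4me3 bases and no H3K36me3. The lack of H3K36me3 is not particular to them, since it overlapped 0.118% and 0.117% of all H3K27me3 peaks. H3K4me3 overlapped 7.69% and 43.9% of H3K27me3 peaks of 10 kb or more, on 1.88% and 5.70% of their bases. The named regions were ranked by the length covered in the library that covered them less. First among H3K27me3 regions was chr11:96109987-96219988, covered over 90594 bp by 23 peaks in replicate 1 and over all 110002 bp by 1 peak in replicate 2. It held 1 H3K4me3 peak of 856 and 1260 bp and no H3K36me3. Its neighbour chr11:96022321-96071225 was covered over 35876 and 48905 bp and held neither other mark. The next were chr8:123569612-123617987, with 34774 and 48376 bp of H3K27me3, chr19:44805439-44842899, with 27363 and 37461 bp, and chr10:42282801-42316152, with 26912 and 33352 bp. Each of these 3 held no H3K4me3 in replicate 1 and a single H3K4me3 peak in replicate 2, of 1289, 2204 and 881 bp. The chr8 domain alone had H3K36me3 within 10 kb, over 2817 and 7248 bp.

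The broadest H3K4me3 regions were almost free of H3K27me3, and 4 of the 5 held H3K36me3 in both replicates. Neither trait is particular to these 5. Of all H3K4me3 peaks of 5 kb or more, H3K27me3 overlapped 0.581% and 3.47%, and H3K36me3 65.7% and 69.4%. The leading one, chr15:85493209-85518411, was covered by H3K4me3 over 21526 and 25203 bp and by H3K36me3 over 17219 and 18238 bp of the same stretch. H3K27me3 was absent from it and from the 10 kb on either side. On chromosome 6 the regions chr6:52186167-52211905 (18115 and 25739 bp) and chr6:52169176-52185775 (13422 and 16600 bp) were neighbours. The former held no H3K36me3 in replicate 1 and 1957 bp in replicate 2. It also held 1166 bp of H3K27me3 in replicate 2 and none in replicate 1, and was the 1 region of the 5 with any. The regions chr3:99050784-99068645 and chr3:58217043-58232285 had 13009 and 17862 bp, and 12748 and 15243 bp, of H3K4me3. In the latter H3K36me3 covered 12349 and 12788 bp.

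The longest H3K36me3 regions held few H3K4me3 bases. In chr9:110035397-110143302 H3K36me3 covered 99620 and 107232 bp, and H3K4me3 covered 915 and 2538 bp. In chr9:82757122-82854038 it covered 88867 and 96917 bp, with no H3K4me3 inside or within 10 kb in either replicate. The regions chr15:37893372-37978079, chr8:98240618-98318898 and chr4:108682978-108760555 had 83047 and 84708 bp, 76035 and 78281 bp, and 74739 and 77534 bp of H3K36me3, each with H3K4me3 within 10 kb in both replicates. With scores of at least 160 the chr8 region kept 72072 bp in replicate 1 and 0 in replicate 2, where its single peak scored lower. None of these 5 held H3K27me3, which overlapped only 0.00799% and 0.046% of all H3K36me3 peaks. Of 17874 H3K36me3 regions listed in both libraries, 9372 (52.4%) had no H3K4me3 within 10 kb in either. After the chr9 region the longest of them were chr3:27339984-27415747, chr19:3452972-3528935, chr2:24645379-24722186 and chr1:38087878-38165405, covered over 69522 to 72223 bp in replicate 1 and 75145 to 77528 bp in replicate 2. With scores of at least 160 the chr1 region kept 69522 bp in replicate 1 and 0 in replicate 2, and the chr2 region 69557 and 44827 bp. A long H3K36me3 stretch listed as several peaks counts here region by region, whatever lies at its far end.

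**Figure D5:**
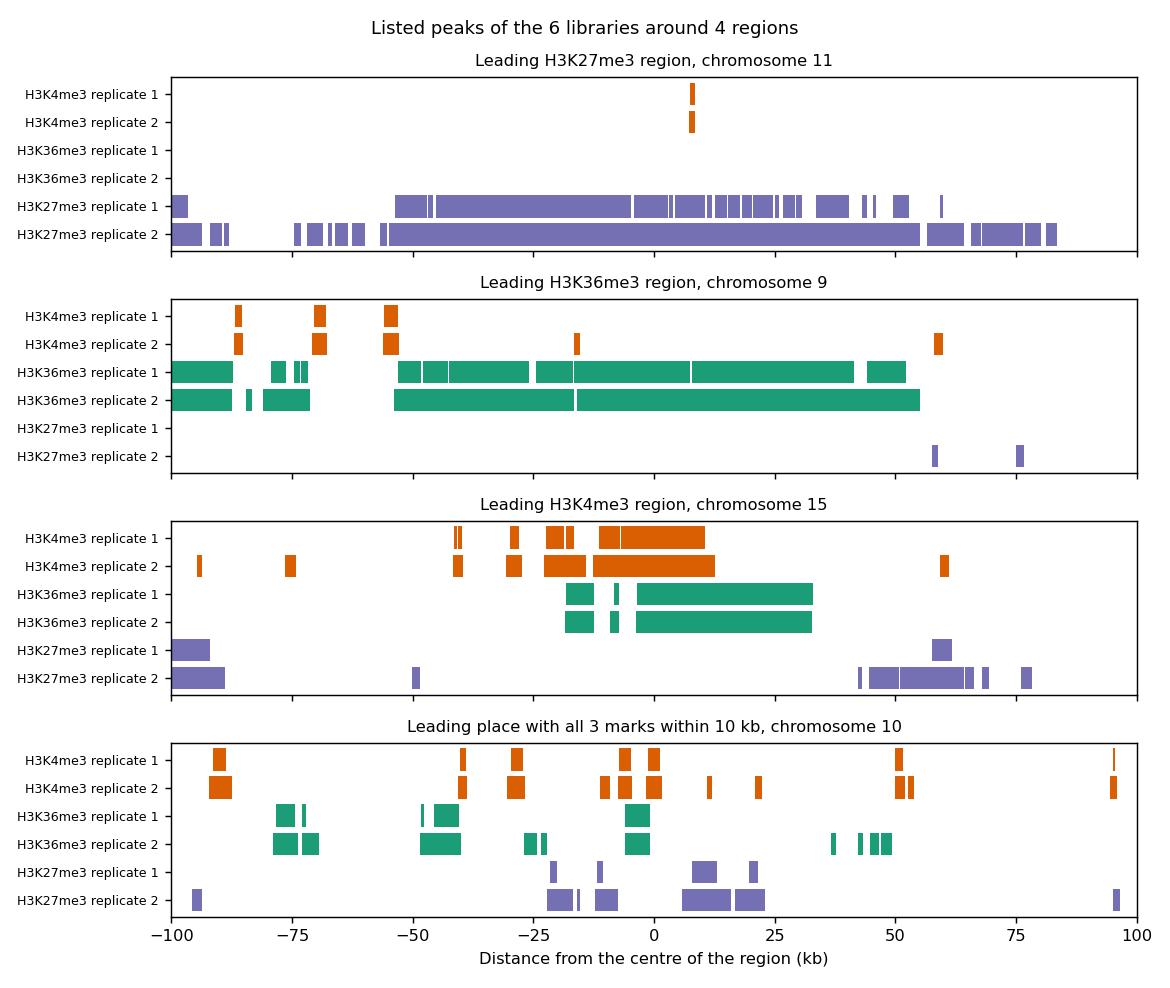
Listed peaks of the 6 libraries (rows; H3K4me3 orange, H3K36me3 green, H3K27me3 violet) within 100 kb of the centre of 4 regions, with distance from the centre in kb on the horizontal axis. The leading H3K27me3 region holds 1 small H3K4me3 peak in each replicate and no H3K36me3, and the leading H3K36me3 region holds no H3K27me3.

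At the longest overlaps of H3K4me3 with H3K27me3 most or all of the H3K4me3 lay under H3K27me3. At chr13:40823155-40829367 H3K4me3 covered 6213 bp in replicate 1 as 1 peak and 2571 bp in replicate 2 as 2 peaks, all of them under H3K27me3. It was the 1 place of the leading 5 where replicate 1 had the wider H3K4me3 peak. At chr6:127098183-127102823 the overlap was 2567 and 4641 bp, at chr19:43688735-43691884 2511 and 3150 bp, at chr3:93247830-93252104 2509 and 4275 bp, and at chr15:79842544-79845528 2396 and 2985 bp. In replicate 2 the H3K4me3 peaks of all 5 lay entirely under H3K27me3. H3K36me3 was absent from the 5 regions in both replicates, as from nearly all H3K27me3 peaks. Within 10 kb it appeared at chr6:127098183-127102823 alone, over 3897 bp in replicate 2.

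H3K4me3 regions with all 3 marks within 10 kb numbered 121 in replicate 1, 1230 in replicate 2 and 113 in both, out of 17794. How many such places independent placement would give was not computed. At the leading one, chr10:126505457-126508807, the window held 4796 and 9198 bp of H3K4me3, 5235 and 5168 bp of H3K36me3, and 4836 and 10055 bp of H3K27me3, and no H3K27me3 lay on the H3K4me3 region itself. At its neighbour chr10:126495952-126498047, the fourth by rank, H3K4me3 was listed in replicate 2 alone, and all 2096 bp of it lay under H3K27me3. At chr9:35365745-35368760 H3K27me3 covered 4179 and 11025 bp beside 8552 and 9336 bp of H3K36me3, at chr9:21041343-21044495 5782 and 8379 bp beside 4713 and 8377 bp, and at chr19:46226023-46229797 5353 and 10179 bp beside 5208 and 10859 bp. H3K27me3 lay on the H3K4me3 itself over 1344 bp at chr9:35365745-35368760 and over 179 bp at chr19:46226023-46229797, in replicate 2 only. H3K27me3 and H3K36me3 lay on the same bases in both replicates at 2 places of 257 and 298 bp, chr16:11144214-11144470 and chr18:35750748-35751045. In each a narrow H3K27me3 peak met an H3K36me3 peak, with 564 and 730 bp of H3K27me3 in the 10 kb around the first and 752 and 1114 bp around the second, against 14700 to 17989 bp of H3K36me3. With scores of at least 160 the first H3K27me3 peak was lost in both replicates and the other in replicate 1.

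Chromosomes 12 and 19 stood at the ends of the range. Chromosome 12 had the lowest covered share in all 6 libraries, where H3K4me3 covered 0.678% and 1.15%, H3K36me3 1.97% and 3.58%, and H3K27me3 0.0403% and 0.532%. The median chromosome had 1.04% and 1.86% of H3K4me3, 4.53% and 7.58% of H3K36me3, and 0.188% and 1.54% of H3K27me3. Chromosome 19 had the highest share for H3K36me3 (7.68% and 11.1%) and H3K27me3 (0.794% and 4.52%) in both replicates, and for H3K4me3 in replicate 2 (2.98%), chromosome 11 being the highest in replicate 1 (1.73%). H3K27me3 had the widest range, with a ratio of highest to lowest chromosome of 19.7 and 8.49, against 3.91 and 3.11 for H3K36me3 and 2.55 and 2.58 for H3K4me3. Stretches of 1 Mb or more with no peak in any of the 6 lists numbered 354 and made up 30.4% of the span. The longest ran over 7.65 Mb at chr7:39057631-46704022.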

How the data were processed

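ChIP-seq of 3 histone marks was used in 6 libraries of Dicer f/f lines. Chromatin was fixed with formaldehyde, sonicated and precipitated with an antibody, per the labels' protocols. The submitters' processing notes name Bowtie 0.12.7, the mm9 build and MACS with no version. The authors deposited peak lists for each library separately, not pooled, each peak with a score of unstated formula. The list called against whole-cell extract was used. It was at least 80 and was used only to filter and describe peaks within a list. Of 24 lists, 18 were not used: those of lines without Dicer and all difference lists.

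Positions were used as deposited, printed with 1-based starts. Peaks on chromosome X and unplaced contigs were left out. Marks of the same replicate number were compared, with an overlap of at least 1 bp and a window of 10 kb. The test was an exact permutation over libraries. Interval code (Python 3.11.15, NumPy 2.4.6, SciPy 1.17.1) was tested on simulated data. Members, windows and tests were chosen with earlier results of these data known. Named regions are the 5 leading of each kind by the length in the library covering them less. The states of genes and promoters, planned for an mm9 annotation, were not analysed here. Alternatives are listed in the closing section.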

Additional observations from a re-analysis of the deposited data

Results flagged for a closer look

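Peaks on chromosome X lay outside the comparisons and were present in every library. Chromosome X held 412 and 541 H3K4me3 peaks, 1075 and 1080 H3K36me3 peaks, and 25 and 409 H3K27me3 peaks in replicates 1 and 2. H3K4me3 covered 0.459% and 0.793% of the listed span of the chromosome, which was 0.455 and 0.445 times the share on chromosomes 1 to 19. For H3K36me3 the ratio was 0.324 and 0.316, and for H3K27me3 0.0971 and 0.259.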

How the results depend on the processing

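Of 89 recomputed values, 76 stayed within the spread between replicates (or, for the length test, kept direction), 13 moved further and none reversed. A value from 1 replicate always lies within 1 SD of a mean of 2, so leaving out a replicate could not move a share. Such values count among the 76, as do the length differences with a replicate block, which could not change. The rule was applied to means, which can hide moves in 1 replicate. With scores of at least 160, H3K27me3 under H3K4me3 went from 7.54% to 5.25% in replicate 1 and from 13.6% to 18.0% in replicate 2. H3K4me3 under H3K27me3 went from 1.5% to 0.653% in replicate 1. The share of H3K27me3 peaks under H3K36me3, 0.118%, has a replicate spread of nearly 0 and moved to 0.0514% with scores of at least 160, 0.159% with peaks closer than 1 kb joined, 0.152% with chromosome X, 0.0764% with replicate numbers crossed and 0.0636% with 50% of the peak covered. The rule of 50% covered gave 3.46% for H3K4me3 under H3K36me3 (main value 16.2%), 2.90% for H3K27me3 under H3K4me3 (main value 10.6%, and 19.2% with numbers crossed) and 1.09% for H3K36me3 under H3K4me3 (main value 7.06%). H3K4me3 with H3K36me3 within 10 kb, 55.7%, was 52.9% with scores of at least 160, 45.4% within 5 kb and 66.4% within 20 kb, and the share with H3K36me3 on 1 side fell from 75.4% to 67.6% at 20 kb. The order of neighbours, the kept side and the H3K4me3 between H3K27me3 and H3K36me3 were added after seeing the data. The planned promoter and gene body alternatives were not run, for lack of an mm9 annotation.

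With 1 replicate left out H3K4me3 under H3K36me3 was 11.4% to 21.0% and under H3K27me3 1.5% to 11.0%, H3K27me3 under H3K4me3 7.54% to 13.6% and under H3K36me3 0.117% to 0.118%, and H3K36me3 under H3K4me3 3.76% to 10.4%. H3K36me3 lay within 10 kb of 54.5% to 56.9% of H3K4me3 peaks and on 1 side in 71.0% to 79.9%. The median distance from H3K27me3 to H3K36me3 was 59.8 to 74.4 kb, H3K4me3 followed H3K27me3 in 72.2% to 81.8% and lay between in 62.7% to 74.4%. The log2 length differences were 2.02 to 2.12 for H3K36me3 over H3K4me3, 2.21 to 4.51 over H3K27me3 and 0.198 to 2.39 for H3K4me3 over H3K27me3. With the replicate number as a block the mean differences were the same, 2.07, 3.36 and 1.29, and the exact sign-flip p was 0.5, the smallest 2 pairs allow, so pairing by number could not be tested. Of 32 named regions, 27 kept their length within the replicate spread with scores of at least 160.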
